A study of Blastobotrys raffinosifermentans with 8 samples.

Results

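The tags described here are 100 locus tags of the yeast *Blastobotrys raffinosifermentans* LS3 whose signal was lowest at 2 h both in glucose medium and in glucose medium with gallic acid. They were chosen by a rule on the measured levels of all 8 arrays: on the authors' log2 table, the score of a tag is the lowest of the 6 arrays of 15 min, 30 min and 5 h minus the higher of the 2 arrays of 2 h. A positive score therefore means that both arrays of 2 h lie below all the others. Of 6123 nuclear tags (36 tags with the prefix ARAD1M were left out), 1483 had a score above 0, which is a background of 24.2%. Of these, 89 were dropped because both arrays of another harvest time exceeded the remaining 6 by 0.5 or more, and the 100 highest scores of the other 1394 were taken. Because the levels themselves chose the tags, the dip at 2 h and the course around it are given as a description, with no test.

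Transcript levels were measured in strain LS3, with no other genotype. All cells were grown overnight in yeast minimal medium with glucose and sodium nitrate, pelleted and moved to fresh nitrate medium at 30 °C. The glucose arm received 1% glucose and the gallic acid arm 1% glucose with 0.5% gallic acid. Harvests followed at 15 and 30 min and again at 2 and 5 h, 1 sample per arm each time, so the 8 conditions have 1 array apiece. Whether the harvests of an arm came from separate flasks is not stated in the labels. The arrays lie on 1 slide with harvest times side by side and the arms in separate rows. Slide column and harvest time thus cannot be told apart, and neither can slide row and gallic acid.

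Moving yeast cells from a spent culture to fresh medium restarts growth, and transcript levels of many genes are remodelled within minutes and again as the culture settles into growth. A one-colour array reads the share of a transcript in the labelled RNA of a sample, so a fall can mean fewer copies of that transcript or more RNA of other genes. Gallic acid is a building block of tannins that this dimorphic yeast can use as a carbon source. The array is designed on locus tags without gene names, so the members are given by tag, and a candidate function can be named for 1 of them.

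On the authors' log2 scale the members' median level in glucose was 7.71 on the 15 min array and 7.62 on that of 30 min, fell to 6.62 at 2 h and was 7.70 at 5 h. With gallic acid the medians, in the same order, were 7.81, 7.81, 6.59 and 7.68. The low point of the medians was of similar depth in both arms, and by 5 h the median was back near its early level. The rule favours both features, since it asks for low values at 2 h in each arm and higher values at 5 h. Across all 6123 tags, the median of each array was between 5.67 and 5.70. The authors' quantile normalisation holds these medians nearly level, so they do not show whether the median tag moved. The mean of both arrays of 2 h lay below the mean of the 6 others by a median of 1.06 among the members (differences of −2.14 to −0.66), a median ratio of 2.08-fold, while the median of all tags was −0.10. The difference was at least 1 in 58 members, at least 1.5 in 12 and at least 2 in 2, against 2.7%, 0.5% and 0.1% of all tags. Among the 2296 tags at least as bright as the dimmest member, its median was −0.25. Spike-in transcripts, added in equal amount to each sample, also lay lower at 2 h on this scale. The 4 within the members' range of levels differed by −0.69, −0.73, −0.62 and −0.26, so the fold values are not corrected for array signal.

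**Figure D1:**
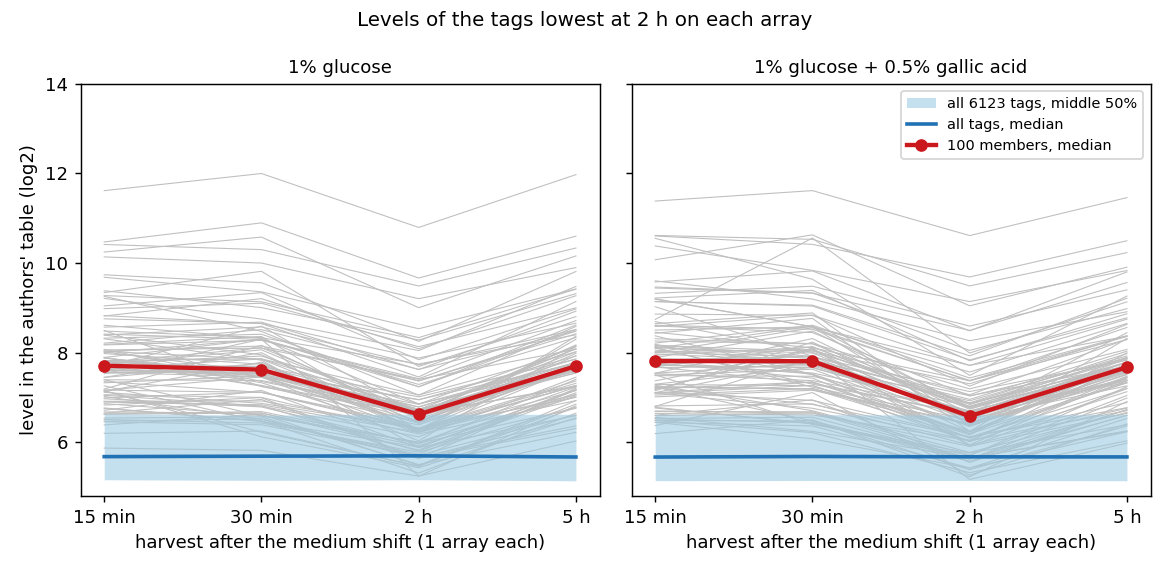
Levels of the 100 members on each array, on the log2 scale of the authors' table, against harvest time in the glucose arm (left) and the gallic acid arm (right); grey lines are single members, the red line their median, and the blue line and band the median and middle 50% of all 6123 tags. The red line falls from 7.62 to 6.62 between 30 min and 2 h in glucose and from 7.81 to 6.59 with gallic acid. The blue line lies between 5.67 and 5.70, held nearly level by the quantile normalisation of the table.

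The member with the highest score was ARAD1D07502g. Its levels from 15 min to 5 h were 8.19, 8.36, 6.27 and 8.30 in glucose, and 8.43, 8.77, 6.24 and 8.32 with gallic acid. All 6 other arrays lay above 8 and both arrays of 2 h near 6.3, a 4.39-fold difference of the means and a score of 1.91. All 10 of its probes were lowest at 2 h, with an SD of the difference over probes of 0.27. ARAD1C08448g had the second highest score, 1.35. It measured 8.39, 7.95, 6.44 and 7.93 in glucose and 8.14, 7.87, 6.51 and 7.88 with gallic acid. Its levels at 2 h were within 0.1 of each other in the arms and 2.93-fold below the mean of the other arrays.

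The brightest members showed the same shape well above the background. ARAD1D15642g, the brightest, had 11.61, 12.00, 10.79 and 11.97 in glucose and 11.38, 11.61, 10.61 and 11.46 with gallic acid. It rests on 2 probes, of which 1 was lowest at 2 h on its own. ARAD1A08118g had 10.47, 10.90, 9.67 and 10.60 in glucose and 10.60, 10.42, 9.69 and 10.50 with gallic acid, and all 6 of its probes were lowest at 2 h. In both tags the difference at 2 h was smaller than in the members with the highest scores, at 1.96-fold and 1.87-fold.

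Scores fell off steeply after the first tags. Their median was 0.67, the middle 50% lay between 0.60 and 0.77, and the limit of the set fell where scores are dense. The last tags inside were ARAD1C17248g, with a score of 0.567, and ARAD1D32252g, with 0.566. The first outside were ARAD1B19712g, with 0.562, and ARAD1D36036g, with 0.559. Members at the limit and tags just beyond it thus differed by under 0.01, so the set is the top of a continuous range.

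The low signal at 2 h was shared by the probes of a tag. In 76 members every probe alone was lowest on both arrays of 2 h, against 4.1% of all tags, and in 92 members at least 80% of the probes were (8.4% of all tags). In 97 members every probe was lower at 2 h than its mean on the other arrays, against 31.8% of all tags. Among the 85 members with at least 4 probes, the difference at 2 h was deeper in the downstream probes than in the upstream ones in 57, with a median gap of 0.12. Over all 5980 tags with as many probes the gap had the other sign, −0.06, and was above 0 in 2343. These probe values come from the arrays that chose the tags and are a description.

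The level reached at 5 h differed among the members about as it did among all tags. Relative to the mean of 15 and 30 min, 30 members were higher at 5 h in both arms and 34 lower in both, against 38.3% and 34.1% of all tags. In 76 members the 5 h level was within 0.5 of the early mean in both arms (78.5% of all tags). The gap was over 0.5 upward in both arms in 4 members and over 0.5 downward in 4 (4.1% and 4.6% of all tags). The rule itself bounds these values, since 5 h had to lie above 2 h and a tag peaking at 5 h was dropped.

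At the upper end, ARAD1D31372g had 7.90, 7.33, 6.22 and 8.37 in glucose and 7.68, 7.32, 6.63 and 8.45 with gallic acid, so that its 5 h value was the highest of each arm. ARAD1C45386g behaved alike at a lower level, with 5.87, 5.82, 5.25 and 6.82 in glucose and 6.20, 6.51, 5.23 and 6.91 with gallic acid. Its low point is limited by the background, which 70% of its 10 probes clearly exceeded on its dimmest array. At the lower end, ARAD1D12034g came back only in part. It measured 7.53, 8.30, 5.25 and 6.03 in glucose and 7.85, 7.91, 5.17 and 5.98 with gallic acid, and both 5 h values lay between the early values and those of 2 h. On its dimmest array 50% of its probes were well above background. ARAD1D35596g also stayed lower at 5 h, with 7.98, 7.74, 6.22 and 7.16 in glucose and 9.19, 8.58, 6.38 and 7.45 with gallic acid.

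Between 15 and 30 min the members moved both ways. The median change was −0.05 in each arm, with a range of −1.25 to 0.97 in glucose and −1.10 to 1.81 with gallic acid. At 30 min 21 members were higher in both arms and 37 lower in both, against 34.1% and 34.5% of all tags. A move of over 0.5 the same way in both arms was found in 7 members and in 12.4% of all tags. The array that lay closest above 2 h, and so set the score, was one of 30 min in 42 members, one of 15 min in 30 and one of 5 h in 28. No single harvest time thus set the floor of the whole set.

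The arms were then set side by side. The dip against the mean of the other harvest times of the same arm had a median of −0.98 in glucose and −1.10 with gallic acid. It was deeper with gallic acid in 63 members (54.1% of all tags). The dips of the arms lay within 0.25 of each other in 71 members and over 0.5 apart in 6, against 75.6% and 5.6% of all tags. The rule favours tags whose arms lie close together, and the members are brighter than most tags, so nothing is read from these shares. Across the 100 members the dips of the arms correlated with r = 0.62, a description over tags that share arrays and were chosen for a dip in both arms. The widest gap was in ARAD1C33550g, which had 9.21, 8.75, 8.05 and 9.48 in glucose and 10.55, 9.64, 7.50 and 9.26 with gallic acid. Its 15 min and 30 min levels were higher with gallic acid and its 2 h level lower, and it rests on 3 probes.

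**Figure D2:**
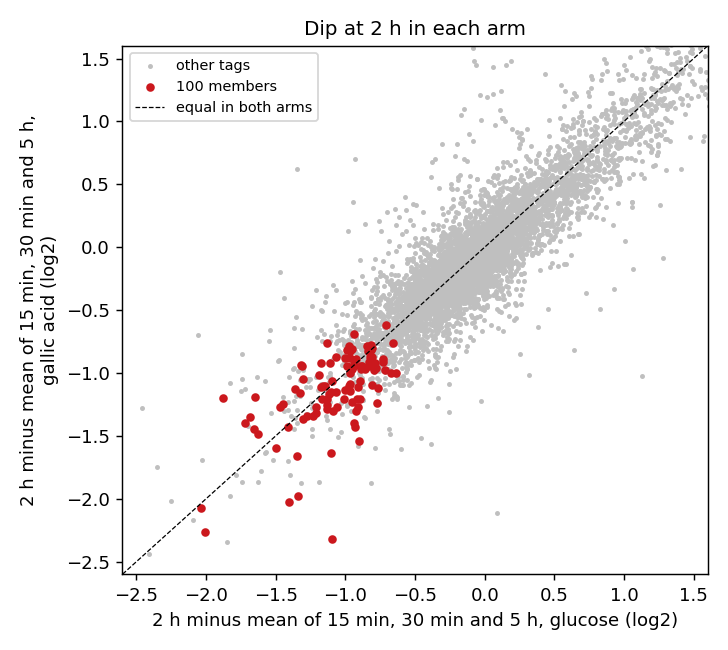
Level at 2 h minus the mean of 15 min, 30 min and 5 h in the glucose arm (x) and the gallic acid arm (y), both in log2 units; red points are the 100 members, grey points the other tags, and the dashed line marks equal values (203 tags fall outside the plotted range). The members lie below −0.6 on both axes, with most close to the line and ARAD1C33550g furthest below it.

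Whether the dip had another depth with gallic acid was tested as the interaction of arm with 2 h in limma, on values recomputed from the scanner files and adjusted over 6111 tags. No tag passed (0 of 6111, 0% called; 190 had an unadjusted p below 0.05), and none of the 100 members did (1 had an unadjusted p below 0.05; lowest limma adjusted p = 1.0). The fit has 2 residual degrees of freedom, and a p that misses the limit does not show that the dips were equal. Because the rule asked for a dip in each arm, it bore on this contrast, and nothing is read from the members' count. For ARAD1C33550g the fitted difference was −1.12 on the log2 scale.

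The next comparison asks whether the members answered to gallic acid over all harvest times, a contrast the rule did not name. The score takes the lowest and the highest values over both arms, however, and so favours tags whose arms lie close together, and the members' values are given with that limit. With harvest time as a block, 5 of 6111 tags passed in limma (0.0818% called; 530 had an unadjusted p below 0.05). None of the members passed, 6 of 100 had an unadjusted p below 0.05, and the lowest limma adjusted p of a member was 0.399. The members' median log2 ratio of gallic acid over glucose was 0.02, with values from −0.47 to 0.55, beside −0.01 for all tags. It was above 0 in 55 members and in 46.5% of all tags tested. At all 4 harvest times 7 members were higher with gallic acid and 4 were lower, against 8.2% and 9.8% of all tags.

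**Figure D3:**
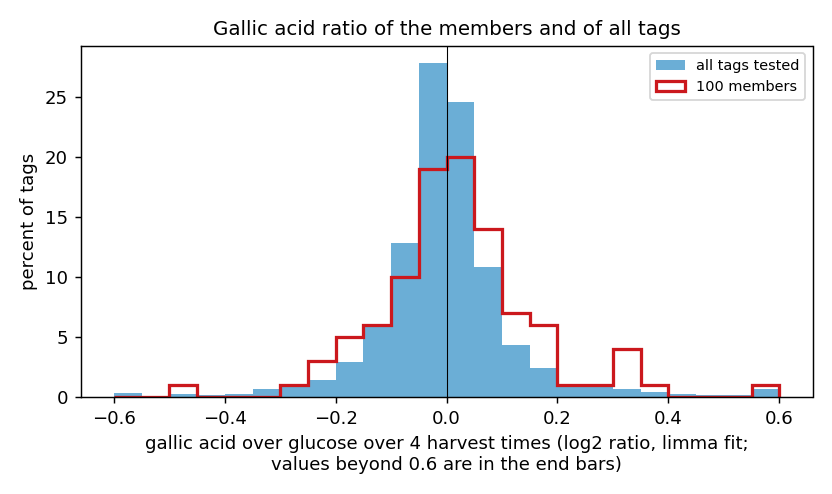
Log2 ratio of gallic acid over glucose over the 4 harvest times from the limma fit (x) against the percent of tags (y), for the 100 members (red outline) and all tags tested (blue). Both centre on 0, with medians of 0.02 and −0.01, and the members run from −0.47 to 0.55.

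The highest ratio among the members was that of ARAD1D35596g, 0.55 (SE 0.18, n = 4 pairs of arrays, limma adjusted p = 0.536). On the scanner values it was higher with gallic acid by 1.11 at 15 min and 0.75 at 30 min, and by 0.11 at 2 h and 0.24 at 5 h. The gap between the arms was thus wide on the early arrays and narrow at the low point. ARAD1C33550g followed with 0.36 (SE 0.32, limma adjusted p = 0.803), from a ratio of 1.30 at 15 min and −0.48 at 2 h. The lowest ratios were −0.47 for ARAD1D33946g (SE 0.20, limma adjusted p = 0.614) and −0.29 for ARAD1D15642g (SE 0.06, limma adjusted p = 0.421). ARAD1D33946g measured 9.26, 8.48, 7.06 and 8.59 in glucose and 8.10, 8.59, 6.76 and 7.80 with gallic acid in the authors' table, so the arms differed mostly at 15 min and 5 h. None of these differences passed the test.

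By size alone, taken as a log2 ratio of at least 1 with at least 80% of a tag's probes of that sign, 3 members differed between the arms at 15 min, where 0.884% of all tags tested did. ARAD1D35596g and ARAD1C33550g were higher with gallic acid and ARAD1D33946g was lower, by 1.07. No member differed by that size at 30 min (0.704% of all tags), at 2 h (0.835%) or at 5 h (0.425%). With 1 array per condition these counts have no test. They moved with the scaling, from 3 members here to 10 with the processed signal scaled by its 75th percentile.

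Of the 10 tags to which the study's text gives a function, 9 were measured here and ARAD1D27984g is the only member. The study lists it among candidate hydroxylases of hydroxybenzoate breakdown that may turn protocatechuic acid into hydroxyquinol. Its designation there is salicylate hydroxylase, the name of a flavin enzyme that turns salicylate into catechol. The study picked the candidates by annotation and by a rise with protocatechuic acid on other arrays. The gallic acid values here do not test that rise. Of the candidates, ARAD1D27984g was the strongest match to a protocatechuate hydroxylase of *Aspergillus niger*. The study leaves the function of the candidates to future work in vivo. ARAD1D27984g measured 7.72, 7.70, 6.79 and 7.86 in glucose and 7.97, 7.81, 7.04 and 7.70 with gallic acid. Both values of 2 h were the lowest of their arm, all 7 probes were lowest at 2 h, and the difference was 1.84-fold (−0.88 in log2). The spike-in at a mean level of 7.34 differed at 2 h by −0.73 on the same scale. With scaling to spike-ins the score of ARAD1D27984g was below 0. Its ratio of gallic acid over glucose was 0.09 (SE 0.07, limma adjusted p = 0.76). The candidate hydroxylase ARAD1C03498g was instead highest at 2 h, at 8.45 in glucose and 7.60 with gallic acid, against 7.02 at most elsewhere. ARAD1D18458g, the tag given for the catechol-1,2-dioxygenase Acdo1p, was at 6.69 and 6.66 at 2 h and at most 6.22 on the other arrays. ARAD1A17402g was also lowest at 2 h in both arms, at 4.53 and 4.50, but its score of 0.30 was below the limit. It was dim, at no more than 4.95 on any array, while the lower quartile of all tags' mean levels was 5.20. A score above 0 was found in 24.2% of all tags. For the remaining tags the mean of 2 h minus that of the other arrays was −0.40 (ARAD1D18502g), −0.23 (ARAD1D18392g), 0.13 (ARAD1C08580g), 0.11 (ARAD1C08558g) and 0.0006 (ARAD1C00330g).

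The members lay on all 4 chromosomes in about the shares of all tags: 17 on A, 19 on B, 32 on C and 32 on D, against 14.2%, 17.1%, 32.5% and 35.6% of all tags. None was among the 31 tags with the prefix ARAD1X, which are 0.5% of all tags. They were scattered along the tag order, and only 4 had another member as a direct neighbour (4.0%, against 3.25% of other tags with a member beside them). Of the 195 tags directly beside a member that were not members, 24.1% had a score above 0, and 22.96% of all tags outside the set did. Among the first and last 20 tags of the chromosomes, 3 of 160 were members (1.88%), a share near that of 100 members among all 6123 tags.

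The closest group lay on chromosome D. ARAD1D01342g and ARAD1D01364g are neighbours, with levels of 6.91, 6.81, 6.13 and 7.45 in glucose for the first and 7.40, 7.38, 6.71 and 7.78 for the second. With gallic acid they had 6.80, 7.89, 5.95 and 7.44, and 7.53, 7.38, 6.70 and 7.59. ARAD1D01408g, also a member, lies 2 places on from the second, and the tag between them did not share the dip. The other pair was ARAD1D22858g, with 8.08, 7.36, 6.65 and 7.23 in glucose and 9.02, 7.92, 6.52 and 7.26 with gallic acid, and ARAD1D22880g, with 8.61, 8.32, 6.86 and 7.66 and with 8.65, 8.89, 6.38 and 7.53. Both of this pair dropped further with gallic acid, −1.54 and −1.98, than in glucose, −0.90 and −1.34. ARAD1D07568g lies 3 places from ARAD1D07502g and had 9.49 on both arrays of 2 h and at least 10.2 elsewhere, while the 2 tags between them stayed near 5.

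The members were brighter than most tags and had fewer probes. Their median level over the 8 arrays was 7.49, against 5.72 for all tags, and in 81 members every probe was well above background on all 8 arrays (24.5% of all tags). A score above 0 was found in 30.7% of the tags at least as bright as the dimmest member, against 24.2% of all tags. A dim tag has little room to fall, so the rule may favour bright tags, but why the members were bright was not tested. Up to 10 probes were designed on a tag by its length. Of the members, 48 had 10 probes and 26 had 5 or fewer, against 77.7% and 8.2% of all tags. The position at the end of a probe's name, taken as its start in the tag, was below 500 for the last probe of 38 members (14.6% of all tags), and its median was 626 against 1111. Bright tags as a whole also had fewer probes: among the 2296 tags at least as bright as the dimmest member, 62.0% had 10 probes, 15.0% had 5 or fewer and 26.3% ended before 500. The dip was similar in members with 10 probes (median −1.10) and with 5 or fewer (−1.07).

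**Figure D4:**
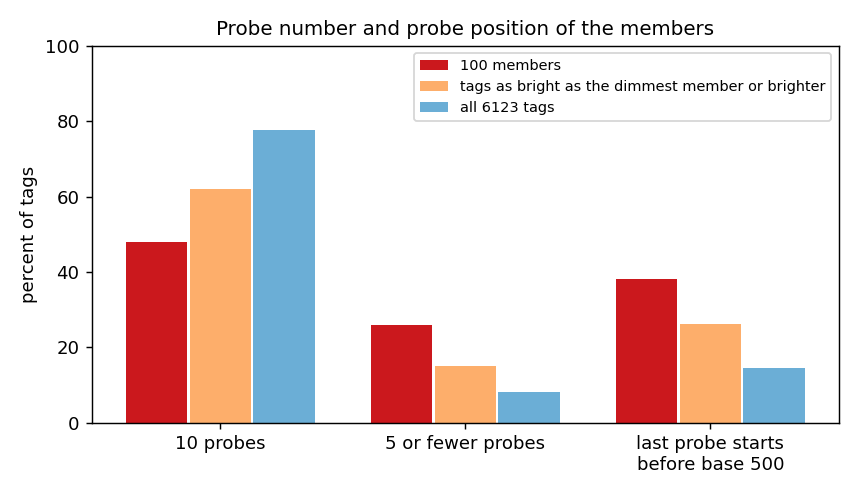
Percent of tags (y) with 10 probes, with 5 or fewer, and with a last probe that starts before base 500 (x), for the 100 members, the 2296 tags at least as bright as the dimmest member and all 6123 tags. The members have 10 probes in 48.0% of tags, below the 62.0% of the bright tags and the 77.7% of all tags.

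The size of the dip depends on how the arrays are brought to a common scale, and the arrays of 2 h stood apart. Before scaling between arrays, the processed signal of the median tag was higher at 2 h than on the other arrays by 0.54 on the log2 scale. The members were lower there by a median of 0.79, all 100 were lower in the mean, and 74 lay below all 6 other arrays on both arrays of 2 h, against 2.3% of all tags. Relative to the median tag the difference was −1.33. In the authors' scaled table it was −0.96, and −0.80 on the scanner values with normexp offset 50.

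Spike-in transcripts, which the labelling kit adds in equal amount, also moved at 2 h. On the authors' scale both arrays of 2 h lay below all others for 5 of the 10. Mean levels of 4 spike-ins were within the range of the members. Those at 6.43, 7.34 and 8.74 differed at 2 h by −0.69, −0.73 and −0.62, and the fourth, at 11.16, by −0.26. Spike-ins brighter than the members, at 13.10 and 14.07, differed by −0.04 each. When the processed signal was scaled to the 7 spike-ins at least as bright as the dimmest member, the median tag was 0.86 higher at 2 h and the members 0.47 lower. On that scale 98 members were lower at 2 h in the mean, but 27 remained below all 6 other arrays, against 0.5% of all tags. A factor common to all tags of an array leaves the members' distance from the median tag unchanged, so that distance was −1.33 with and without the spike-ins. Against the added RNA the members' own difference was smaller. The part of array signal and labelling in the dip was not tested.

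**Figure D5:**
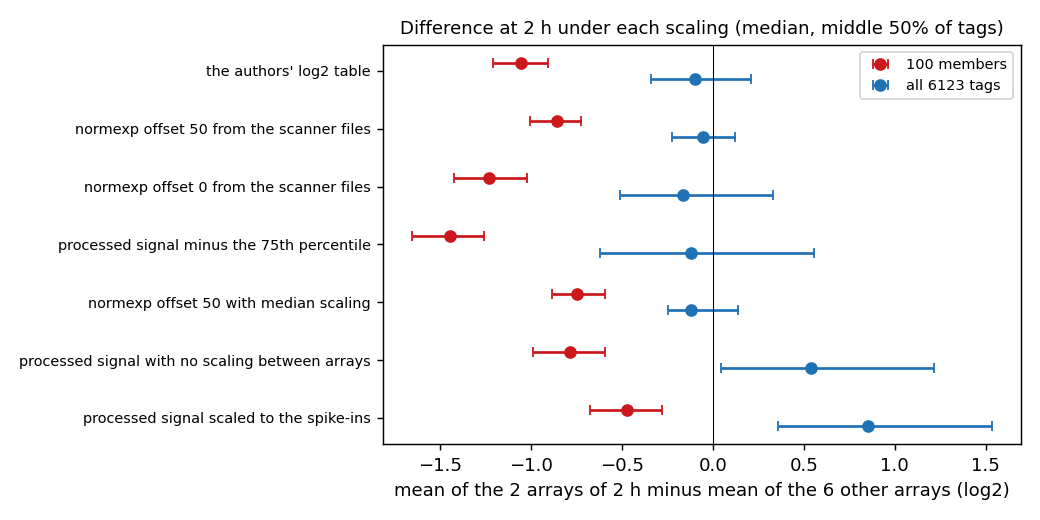
Mean of both arrays of 2 h minus the mean of the 6 other arrays in log2 units (x) under each scaling (y); points are medians over tags and bars the middle 50%, for the 100 members (red) and all 6123 tags (blue). The members lie below all tags under each scaling shown, by 0.63 to 1.33, while the median of all tags moves from −0.16 to 0.86.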

How the data were processed

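Spot intensity values were deposited as scanner files, which Agilent Feature Extraction 11.5.1.1 had written. The deposited flags are other values of 0 or 1. The authors also deposited a log2 table of the same 8 arrays, made per the labels with normexp background correction and quantile normalisation in limma. The signal column and the offset behind it stay unknown here. Its column medians were 5.63 to 5.65, and genes were not centred.

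Each array carries 61537 yeast spots of 56312 probes for 6159 locus tags, of which 56.7% to 81.9% per array were well above background. The number of arrays limits the precision. Spots of a probe were averaged, and probes were summarised per tag by their median. Levels and scores come from the authors' table. Tests and ratios come from the scanner files: median spot signal, normexp with offset 50, quantile normalisation, R 4.3.3 and limma 3.58.1 with Benjamini-Hochberg adjustment. The offset shrinks ratios of dim tags. A tag was tested when at least 1 probe was well above background on 2 or more arrays, which all 100 members passed. Harvest time was a block, with 3 residual degrees of freedom for the arms and 2 for the interaction. P-values rest on the spread among these 8 arrays alone, which may be technical.

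The members, lists and named tags were chosen with earlier results of these data known. Named are the first 2 tags of each order (score, ratio of gallic acid over glucose, 5 h level, brightness), tags at the limit, neighbouring members, and members with a function in the study. The lists of functions were not analysed here because no table pairs tags with names. On simulated data with 200 changed tags among 6111, the arm fit recovered 98.5% of log2 changes of 1 and 100% of 2, and the interaction fit 85.5% and 99%. False calls were 16 and 7 for the arm fit and 17 and 11 for the interaction fit. The simulated noise was independent between arrays, so these shares do not give the power on the real arrays. Alternatives were other background, scaling, probe summaries, filters and priors, single arms, and harvest times left out.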

Additional observations from a re-analysis of the deposited data

How the results depend on the processing

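The set was the top of a ranked list. Over the 13 planned settings its makeup moved more than its direction did. That did not hold with scaling to spike-ins, a setting chosen later. Of the 100 members, 44 stayed among the 100 highest scores with the brightest probe, 56 with glucose alone, 53 with gallic acid alone, 50 without 15 min and 54 without 30 min. Under the other 8 settings 68 to 100 stayed. The score stayed above 0 in all members under each of these settings except the brightest probe (96 members). Chosen after seeing the data, the signal with no scaling between arrays kept 61 members in the set and scaling to spike-ins 59, with 27 scores above 0 on the latter. Scores below 0 came with the brightest probe for ARAD1D15642g (-0.146) and ARAD1D01408g (-0.035). They came with no scaling for ARAD1D32252g (-0.007), ARAD1D01342g (-0.083), ARAD1D01408g (-0.021), ARAD1D22858g (-0.285) and ARAD1D22880g (-0.16). With spike-in scaling they were -0.038 for ARAD1C33550g, -0.333 for ARAD1D33946g, -0.098 for ARAD1D31372g, -0.026 for ARAD1C45386g, -0.097 for ARAD1D12034g, -0.035 for ARAD1C17248g and -0.162 for ARAD1D32252g. For the members near each other they were -0.407 for ARAD1D01342g, -0.295 for ARAD1D01364g, -0.401 for ARAD1D01408g, -0.016 for ARAD1D07568g, -0.582 for ARAD1D22858g and -0.508 for ARAD1D22880g, and -0.328 for ARAD1D27984g.

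In the limma fit of gallic acid against glucose the number of tags called was 5, but 1 with Bonferroni, 18 with offset 0, 13 with the 75th percentile, 10 with the authors' table, 17 with a trended robust prior, 3 with no block, and 0 without 15 min, 30 min or 2 h. No member was called under any of these. The lowest limma adjusted p of a member ranged from 0.197 to 1 over 15 settings. For the interaction the count was 0, and 5 with the trended robust prior, none of them a member. Size calls among the members were 3, but 8 with offset 0, 10 with the 75th percentile, 6 with the authors' table and 12 at 1.5-fold. The cause of these shifts was not tested. The arms were paired by harvest time, and the labels number no replicates beyond it.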
